A study of Mus musculus with 6 samples.

Results

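The interferon-inducible GTPases described here are 10 mouse genes, 5 of the immunity-related GTPase (IRG) family (Igtp, Iigp1, Irgm1, Irgm2 and Tgtp2) and 5 of the guanylate-binding protein (GBP) family (Gbp2, Gbp3, Gbp6, Gbp7 and Gbp9). They are 10 of the 55573 genes in the count table. They were listed by symbol and chosen by their levels in these same libraries and their difference between dKO and WT, so that difference is given as a description. RNA was sequenced from cells sorted as RGCs (retinal ganglion cells), which send the eye's output to the brain. The libraries labelled dKO (3) came from eyes given AAV2-Cre, a viral vector carrying Cre recombinase, and those labelled WT (3) from eyes given AAV2-GFP. All the mice, WT included, were C57BL/6 animals carrying floxed Myh9 and Myh10, and the vectors had been injected into the vitreous 2 weeks before the animals were killed. Every library pooled 3 retinas from 3 mice. The labels give neither the promoter driving Cre or GFP, nor the animals' age, nor the gate of the sort.

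Total counts were 4569880 to 5634316 in the libraries labelled dKO and 4730540 to 6146226 in those labelled WT. The ribosomal RNA row CT010467.1 took 64.2% to 91.2% of the dKO-labelled and 90.2% to 92.8% of the WT-labelled libraries, so that 346037 to 1636581 counts fell on all other genes. dKO replicate 3, with 64.2%, had 3.53 times the mean of the other 5 libraries outside that row and stands apart from them. Myh9 was at 62.7 ± 4.13 and 64.2 ± 3.91 CPM in the libraries labelled dKO and WT, and Myh10 at 18.0 ± 3.39 and 18.7 ± 2.08 CPM (SD, n = 3 each). CPM are reads relative to the library's total, scaled by TMM. Neither targeted gene was detectably lower in the libraries labelled dKO (edgeR adjusted p = 0.908 and 0.735), and counts over the whole gene do not check the floxed part, so the groups are called by their labels throughout. Of 15 RGC markers, 5 were abundant enough to test, and the defining factors were at or near 0: Pou4f1 had 3, 1 and 9 counts in the dKO-labelled and 1, 0 and 0 in the WT-labelled libraries, and Pou4f2 0, 2 and 5 against 0, 0 and 0. Müller glia and astrocyte markers summed to 3537 to 3748 CPM in the dKO-labelled and 3407 to 3533 CPM in the WT-labelled libraries, against 39.3 to 40.6 and 27.5 to 32.9 CPM for the RGC list. The values below therefore describe the RNA of the sorted material and not of RGCs alone, and fewer cells that make a transcript and less of it per cell cannot be told apart in such bulk RNA.

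IRG and GBP proteins are GTPases that cells make in large amounts after exposure to interferon, the cytokine signal of infection. Interferon receptors act through JAK kinases on STAT transcription factors. STAT complexes that contain IRF9 bind the interferon-stimulated response element (ISRE), and STAT dimers bind the gamma-activated site (GAS). In the mouse, the effector IRG proteins and the GBPs gather on the vacuoles that hold intracellular parasites and bacteria and break those membranes, while the IRGM proteins mark the cell's own membranes and hold the effectors off them. In the retina these genes are known mainly as part of the response of glia, microglia and vessels to inflammation.

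Promoter windows from RefSeq (GRCm38.p6, 250 bases before to 50 after a transcription start) were found for 7 of the 10 genes, and they are shown because these genes are known for the elements that interferon acts through. The ISRE core was searched as GAAANNGAAA and the GAS as TTCNNNGAA, on both strands, N being any base. In each line the capitals mark the ISRE core match, or 2 matches that overlap, with 20 bases on either side, written 5′ to 3′ along the gene's strand. The Gbp genes hold the match on the opposite strand, so its complement, read backwards, is printed there.
Igtp, chr11:58199502-58199551, plus strand: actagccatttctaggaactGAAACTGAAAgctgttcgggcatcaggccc
Irgm2, chr11:58214893-58214942, plus strand: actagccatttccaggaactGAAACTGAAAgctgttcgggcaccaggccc
Irgm1, chr11:48871415-48871470, minus strand: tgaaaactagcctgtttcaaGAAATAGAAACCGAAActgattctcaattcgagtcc
Tgtp2, chr11:49064253-49064302, minus strand: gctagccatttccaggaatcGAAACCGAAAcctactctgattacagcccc
Gbp2, chr3:142620584-142620633, plus strand: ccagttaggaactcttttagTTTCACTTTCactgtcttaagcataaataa
Gbp3, chr3:142559979-142560034, plus strand: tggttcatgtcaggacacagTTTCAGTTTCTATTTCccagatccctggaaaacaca
Gbp7, chr3:142530263-142530312, plus strand: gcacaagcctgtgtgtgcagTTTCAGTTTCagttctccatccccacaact

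An ISRE core match was present for all 7 genes, against 3.44% of all 32851 windows (1131 windows). The matches lay between 70 and 15 bases upstream of the start, nearest in Irgm1 and farthest in Tgtp2. Irgm1 and Gbp3 each held 2 overlapping matches, and a second RefSeq window of Gbp3 held none. A GAS match was present for 4 of the 7 (Igtp, Irgm2, Tgtp2 and Gbp7), against 8.30% of all windows (2726 windows). In Igtp, Irgm2 and Tgtp2 the GAS match ended just upstream of the ISRE core, at 37, 67 and 73 bases from the start. The stretches of Igtp and Irgm2 are alike in 48 of 50 bases. Iigp1, Gbp6 and Gbp9 had no entry in the promoter table. A match of letters is a description and not a measured binding site.

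**Figure D1:**
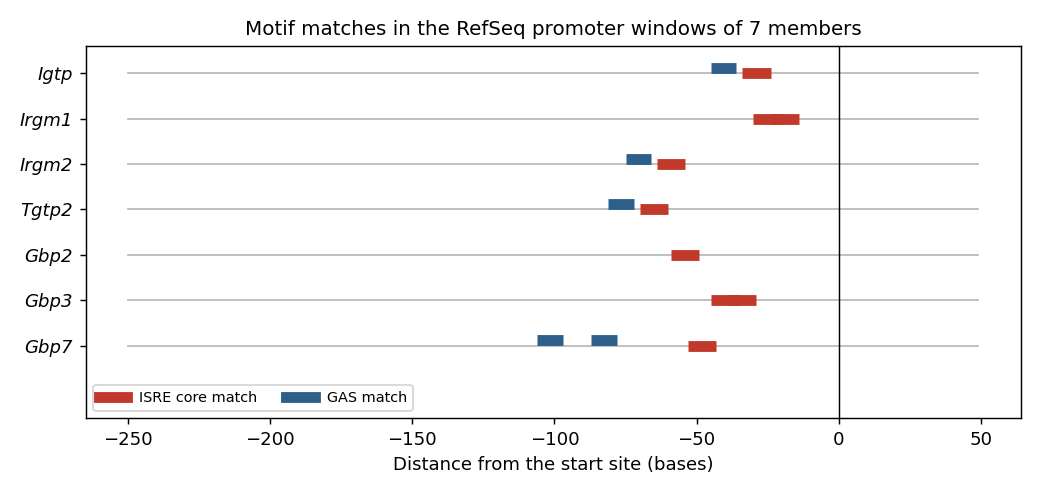
Positions of ISRE core matches (red) and GAS matches (blue) in the RefSeq windows of 7 genes; the x axis is the distance from the start site in bases and each grey line is 1 window. All ISRE core matches lie between 70 and 15 bases upstream, and GAS matches are drawn for Igtp, Irgm2, Tgtp2 and Gbp7.

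Of the regulatory IRGM genes, Igtp and Irgm2 were lower in the dKO-labelled libraries, while Irgm1 overlapped between the groups. Igtp (Irgm3, ENSMUSG00000078853, chromosome 11, 58199556 to 58207591, plus strand, GRCm38) encodes a regulator that sits on the endoplasmic reticulum. It stood at 11.7, 10.7 and 10.97 CPM in dKO replicates 1 to 3, against 21.6, 20.6 and 21.7 CPM in WT replicates 1 to 3. Every WT-labelled library was above every dKO-labelled one, with little spread within either group. The means were 11.1 ± 0.531 and 21.3 ± 0.614 CPM (SD, n = 3 each), a log2 fold change of -0.94 ± 0.14 (SE).

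Irgm2 (ENSMUSG00000069874, chromosome 11, 58199618 to 58222782, plus strand), a regulator found at the Golgi, had 8.06, 5.82 and 6.73 CPM in dKO replicates 1 to 3, against 11.6, 9.19 and 13.5 CPM in WT replicates 1 to 3. The groups did not overlap, but dKO replicate 1 and WT replicate 2 lay close together. Its log2 fold change was -0.75 ± 0.18 (SE). Irgm1 (ENSMUSG00000046879, chromosome 11, 48861968 to 48871683, minus strand), which macrophages need to control mycobacteria, had 14.4, 14.3 and 18.3 CPM in dKO replicates 1 to 3 and 24.3, 15.8 and 18.1 CPM in WT replicates 1 to 3. It is the only one of the 10 genes whose groups overlapped: dKO replicate 3 was above WT replicates 2 and 3, and WT replicate 1 was the highest. The log2 fold change of Irgm1 was -0.27 ± 0.14 (SE; 95% interval -0.54 to 0.01).

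The effector IRG genes had the lowest log2 fold changes of the 10 in the edgeR fit. Tgtp2 (Irgb6, ENSMUSG00000078921, chromosome 11, 49057194 to 49064206, minus strand) encodes a T cell-specific GTPase that coats parasite vacuoles. It had 3.45, 2.67 and 2.94 CPM in dKO replicates 1 to 3, against 7.65, 6.02 and 8.93 CPM in WT replicates 1 to 3. In CPM every dKO-labelled library was below the lowest WT-labelled one, and the log2 fold change was -1.34 ± 0.24 (SE, 95% interval -1.82 to -0.85). The nearest libraries, dKO replicate 1 and WT replicate 2, held 18 and 19 counts, so their distance comes from scaling. Iigp1 (Irga6, ENSMUSG00000054072, chromosome 18, 60376027 to 60392634, plus strand), the effector that disrupts the Toxoplasma vacuole, had 5.37, 5.34 and 7.05 CPM in dKO replicates 1 to 3, against 14.0, 13.3 and 11.7 CPM in WT replicates 1 to 3. The groups were again apart, with a log2 fold change of -1.04 ± 0.18 (SE). The counts behind these values were small, 11 to 45 reads a library for Tgtp2 in the dKO-labelled and 19 to 35 in the WT-labelled libraries.

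In the Gbp cluster of chromosome 3, Gbp2 and Gbp3 were lower in every library labelled dKO than in any labelled WT, and Gbp7 differed by less. This cluster is the one whose deletion in mice impairs resistance to Toxoplasma. Gbp2 (ENSMUSG00000028270, 142620602 to 142638008, plus strand), a prenylated GBP that attaches to membranes, had 25.0, 22.3 and 20.4 CPM in dKO replicates 1 to 3, against 32.8, 29.5 and 32.6 CPM in WT replicates 1 to 3. The 3 dKO-labelled values were all under the lowest WT-labelled one, with a log2 fold change of -0.53 ± 0.12 (SE). Gbp3 (ENSMUSG00000028268, 142560026 to 142573209, plus strand) had 7.29, 8.25 and 9.73 CPM in dKO replicates 1 to 3, against 14.4, 14.3 and 15.3 CPM in WT replicates 1 to 3. The WT-labelled values of Gbp3 were close together and well above the highest dKO-labelled value, with a log2 fold change of -0.73 ± 0.16 (SE). Gbp7 (ENSMUSG00000040253, 142530342 to 142550149, plus strand) had 12.5, 15.3 and 14.2 CPM in dKO replicates 1 to 3, against 15.95, 17.4 and 17.3 CPM in WT replicates 1 to 3. For Gbp7 the groups came close, at dKO replicate 2 and WT replicate 1, and the log2 fold change of -0.27 ± 0.14 (SE) had a 95% interval of -0.55 to 0.01.

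From the Gbp cluster of chromosome 5 came Gbp9 and Gbp6. Gbp9 (ENSMUSG00000029298, 105077630 to 105139539, minus strand) had 4.99, 8.25 and 8.16 CPM in dKO replicates 1 to 3, against 14.0, 16.2 and 13.8 CPM in WT replicates 1 to 3. The gap between the groups was wider than the spread inside either, and the log2 fold change of -0.97 ± 0.17 (SE) was the lowest among the 5 Gbp genes in that fit. Gbp6 (ENSMUSG00000104713, 105270702 to 105293698, minus strand) had the fewest counts of the 10, with 9, 16 and 49 counts in dKO replicates 1 to 3 and 18, 14 and 24 in WT replicates 1 to 3. Scaled, these were 1.73, 3.88 and 3.20 CPM against 3.93, 4.44 and 6.12 CPM, so that dKO replicate 2 and WT replicate 1 were nearly equal. Its log2 fold change was -0.68 ± 0.29 (SE; 95% interval -1.25 to -0.11).

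**Figure D2:**
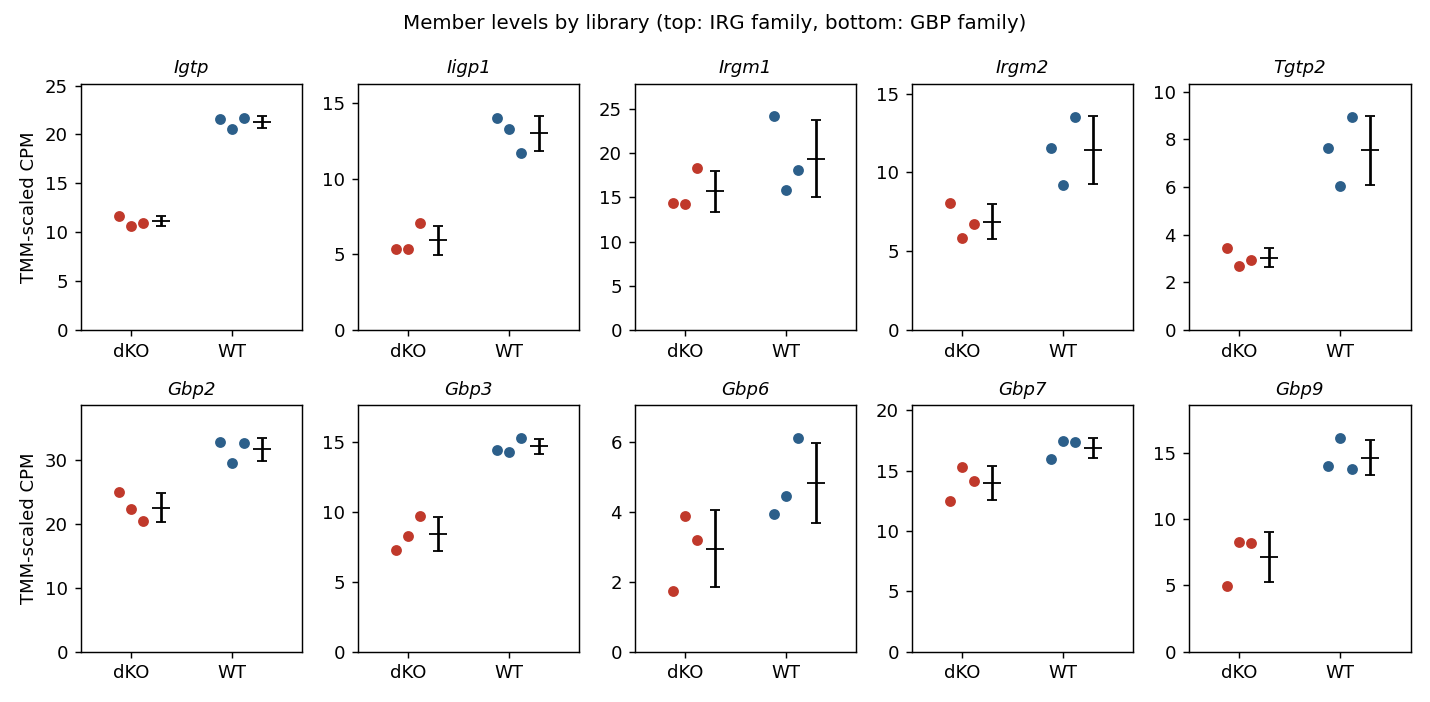
TMM-scaled CPM of each of the 10 genes in the 3 libraries labelled dKO (red) and the 3 labelled WT (blue), in replicate order, with the mean and SD as bars; each panel has its own y axis from 0. Igtp stands at 10.7 to 11.7 CPM in dKO and 20.6 to 21.7 CPM in WT, and Irgm1 is the panel in which the groups overlap.

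All 10 genes passed the filter on low counts, and all 10 log2 fold changes were negative, from -1.34 to -0.27 with a median of -0.74; the median over all 8444 genes tested was -0.00072. Called lower by edgeR at an adjusted p under 0.05 were 7 of the 10 (Igtp, Irgm2, Iigp1, Tgtp2, Gbp2, Gbp3 and Gbp9), beside 1.18% of all genes tested, and none was called higher by edgeR, DESeq2 or limma-voom, beside 0.734% with edgeR. For 9 of the 10 the 3 dKO-labelled CPM were all below the 3 WT-labelled ones, beside 8.31% of all genes. The genes were chosen with this contrast known, so nothing is read from these counts. Irgm1, Gbp6 and Gbp7 were not called. By family, 4 of 5 IRG genes were called lower with a median of -0.94, and 3 of 5 Gbp genes with a median of -0.68. Irgm2 lost its call with DESeq2 (adjusted p = 0.147) and without dKO replicate 3 (0.0989), WT replicate 1 (0.0567) or WT replicate 3 (0.131). Gbp2 lost it without dKO replicate 3 (0.134, log2 fold change -0.42). The other 5 called genes passed the threshold under each alternative run. The labels do not say whether replicates came from separate cohorts, so p-values here reflect how these 6 libraries vary, and that variation may be technical.

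**Figure D3:**
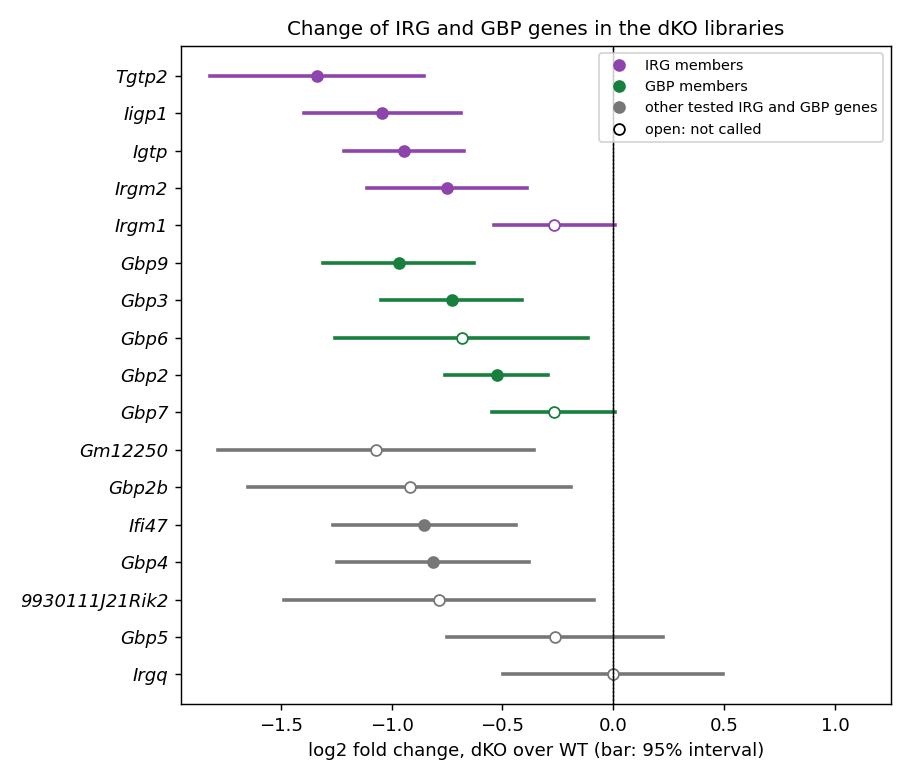
Log2 fold change, dKO over WT, of the 10 genes (purple, IRG; green, GBP) and of the 7 other tested genes of both families (grey); bars are 95% intervals and open circles did not pass the adjusted p threshold of 0.05. Tgtp2 at -1.34 is the lowest, and Irgm1 and Gbp7 at -0.27 are the highest of the 10.

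Summed over the 10 genes, the libraries labelled dKO held 492, 399 and 1557 counts in replicates 1 to 3, and those labelled WT held 733, 463 and 624. As a share of the counts outside the ribosomal RNA row, these were 0.0854% (95% Wilson interval 0.0782 to 0.0933), 0.0880% (0.0798 to 0.0971) and 0.0951% (0.0905 to 0.09998) in dKO replicates 1 to 3. In WT replicates 1 to 3 the shares were 0.147% (0.137 to 0.158), 0.134% (0.122 to 0.147) and 0.141% (0.131 to 0.153). The intervals cover counting error only. This share needs no TMM scaling, and the 3 dKO-labelled values, including that of the deep replicate 3, lay below the 3 WT-labelled ones. The means were 0.0895% ± 0.00504 and 0.141% ± 0.00653 (SD, n = 3 each), a ratio of 0.636.

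Per length, Gbp2 and Igtp were far above the other 8. In CPM per kb of exon (GENCODE M21), Gbp2 was at 8.96 ± 0.913 and Igtp at 5.50 ± 0.263 in the libraries labelled dKO, and at 12.6 ± 0.746 and 10.5 ± 0.304 in those labelled WT (SD, n = 3 each). In the dKO-labelled libraries the levels then ran Irgm1 (2.46 to 3.16 over its libraries), Gbp3 (mean 2.58), Gbp7 (2.49), Irgm2 (1.86), Gbp9 (1.38), Tgtp2 (1.03), Iigp1 (1.02) and Gbp6 (0.493 CPM per kb). Neighbours in this order overlapped between libraries except at the steps from Gbp2 to Igtp, Igtp to Irgm1, Gbp7 to Irgm2 and Iigp1 to Gbp6. In the WT-labelled libraries the order was Gbp3 (4.49), Irgm1 (3.34), Irgm2 (3.10), Gbp7 (3.01), Gbp9 (2.83), Tgtp2 (2.56), Iigp1 (2.23) and Gbp6 (0.811 CPM per kb). There Gbp3 stood clear of Irgm1 and Gbp6 of Iigp1, while the genes from Irgm1 to Iigp1 overlapped neighbour by neighbour. Within the range from Irgm1 down to Iigp1, Iigp1 and Tgtp2 were thus at the low end in both groups.

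**Figure D4:**
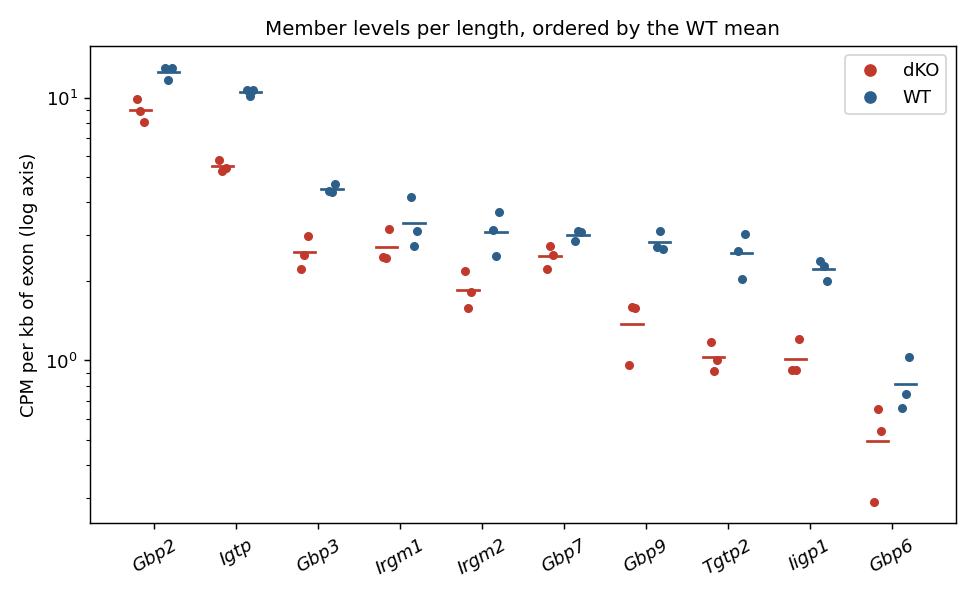
CPM per kb of exon on a log axis for each of the 10 genes, ordered by the WT mean; points are libraries labelled dKO (red, left) and WT (blue, right) and lines are means. Gbp2 and Igtp lead in both groups, at 8.96 and 5.50 in dKO and 12.6 and 10.5 in WT, and Gbp6 is lowest, at 0.493 and 0.811.

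Some ratios of raw counts within the family, which no scaling touches, also differed between the groups. The effectors Iigp1 and Tgtp2 together had 46, 33 and 153 counts in dKO replicates 1 to 3, beside 178, 127 and 552 for the regulators Irgm1, Irgm2 and Igtp. In WT replicates 1 to 3 they had 99, 61 and 81 counts, beside 263, 144 and 209. Effectors over regulators was therefore 0.258, 0.260 and 0.277 in the libraries labelled dKO, against 0.376, 0.424 and 0.388 in those labelled WT, with no overlap. Irgm1, whose CPM overlapped between the groups, gave 75, 59 and 281 of the regulator counts in dKO replicates 1 to 3. In WT replicates 1 to 3 it gave 111, 50 and 71. The ratio thus depends in part on Irgm1. With Irgm1 left out of the regulators the gap narrowed, and dKO replicate 3 and WT replicate 3 came close. Their effector counts of 153 and 81 then stood beside 168 and 85 for Igtp and 103 and 53 for Irgm2. Neither form of the ratio was tested. Igtp over Irgm1 was 0.813, 0.746 and 0.598 in dKO replicates 1 to 3, against 0.892, 1.30 and 1.20 in WT replicates 1 to 3; dKO replicate 1 and WT replicate 1 were close. Gbp9 over Gbp7 was 0.400, 0.540 and 0.576 in dKO replicates 1 to 3, against 0.877, 0.927 and 0.794 in WT replicates 1 to 3. These pairs were chosen with the differences known and carry no test. The IRG share of the counts of all 10 genes overlapped between the groups, at 43.6% ± 3.06 in dKO and 46.7% ± 2.56 in WT (SD, n = 3 each).

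Several of these genes have near-copies, and how the authors' counting treated reads that match more than 1 gene is not given in the sources used here. Of the 50-base stretches in GENCODE M21 transcripts of Tgtp2, 86.6% also occur in another gene, nearly all of them in Tgtp1, and 70.7% of those of Gbp6, mostly in Gm43302, whose exons also overlap 29.0% of Gbp6. Their single values are therefore uncertain. Tgtp1 and Tgtp2 summed to 3.84 ± 0.204 CPM in the libraries labelled dKO and 9.88 ± 1.73 CPM in those labelled WT (SD, n = 3 each). For Gbp7 the share was 12.7%, most of it with the pseudogene Gm43802, and for Igtp 11.8%, all of it with Irgm2. Igtp and Irgm2 share 162 bases of exon on the same strand. For Gbp9 it was 8.05%, for Irgm2 7.77%, and for Gbp3, Gbp2, Iigp1 and Irgm1 between 0.310% and 3.75%. Gbp9 with its neighbours Gbp4 and Gbp8 summed to 13.1 ± 2.39 CPM in dKO and 23.9 ± 0.756 CPM in WT (SD, n = 3 each). Both sums left the groups without overlap, as the single values of Tgtp2 and Gbp9 did.

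Outside the 10 genes, edgeR called lower 1 of 4 tested IRG genes and 1 of 3 tested GBP genes, beside 1.18% of all genes tested. All of their log2 fold changes were negative in this fit, with medians of -0.82 and -0.81. The sign of Irgq was not stable, being negative under 5 of 13 alternative runs with values from -0.27 to 0.38. Gbp5 was negative under 12 of 13. Ifi47, an IRG protein of the effector kind, had 4.22, 4.13 and 5.42 CPM in dKO replicates 1 to 3, against 8.52, 9.82 and 8.42 CPM in WT replicates 1 to 3 (log2 fold change -0.85 ± 0.21, SE; edgeR adjusted p = 0.00882). Its groups were apart, but the call was lost with DESeq2 (0.107) and without WT replicate 2 (0.0560). Gbp4, of the chromosome 5 cluster, had 3.84, 4.85 and 4.70 CPM in dKO replicates 1 to 3, against 8.52, 6.65 and 8.42 CPM in WT replicates 1 to 3 (-0.81 ± 0.22, SE; edgeR adjusted p = 0.0230). The call of Gbp4 was lost with DESeq2 (0.268), with no filter on low counts (0.0549) and without dKO replicate 1 (0.0666), dKO replicate 3 (0.0923), WT replicate 1 (0.177) or WT replicate 3 (0.104). Not called were Gm12250 (-1.07 ± 0.36), Gbp2b (-0.92 ± 0.37), 9930111J21Rik2 (-0.79 ± 0.35), Gbp5 (-0.26 ± 0.24) and Irgq (-0.0013 ± 0.25, SE for each). In CPM every dKO-labelled library was below every WT-labelled one for Gm12250, while the groups of the other genes just named overlapped. GENCODE M21 lists Gm12250 as a processed pseudogene, a label that was not checked here. Gbp5, a prenylated GBP tied to inflammasome assembly in macrophages, stood at 5.402 ± 2.00 CPM in dKO and 6.04 ± 0.9747 CPM in WT, and Irgq at 4.64 ± 1.69 and 4.14 ± 0.966 CPM (SD, n = 3 each).

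Of the family genes too sparse to test, Tgtp1 had 2, 4 and 17 counts in dKO replicates 1 to 3 and 13, 6 and 9 in WT replicates 1 to 3, and Gm4951 had 8, 4 and 23 against 23, 9 and 10. Gbp8 had 8, 6 and 24 counts in dKO replicates 1 to 3 and 6, 6 and 4 in WT replicates 1 to 3, and Gbp10 had 7, 7 and 11 against 5, 3 and 3. After scaling, Tgtp1 averaged 0.822 ± 0.385 CPM in dKO and 2.35 ± 0.472 CPM in WT, whereas Gbp8 averaged 1.52 ± 0.0573 and 1.41 ± 0.449 CPM (SD, n = 3 each). Gm5431, 9930111J21Rik1, Gm12185 and F830016B08Rik had 1 to 20 counts a library. Gbp11 had 9 counts in all, and Irgc1, which is known from testis, had none.

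Interferon genes themselves were all but absent. Of 21 interferon ligand genes in the table, 20 had no count in any library, among them Ifnb1, and Ifng had 2, 0 and 3 counts in dKO replicates 1 to 3 and 0, 1 and 0 in WT replicates 1 to 3. A count of 0 allows up to 3 counts, which is 0.196 to 0.950 CPM depending on the library, so low levels were not detectable at this depth. None of the 8 tested receptors and kinases was called by edgeR, DESeq2 or limma-voom, and 1 had an unadjusted p under 0.05 in edgeR; their median was -0.02. Ifngr1, the ligand-binding chain of the interferon gamma receptor, was at 21.1 ± 1.03 CPM in dKO and 17.3 ± 2.11 CPM in WT (SD, n = 3 each; edgeR adjusted p = 0.276), and Jak2, its kinase, at 13.3 ± 1.75 and 15.3 ± 0.248 CPM (0.722).

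Of 12 tested interferon transcription factors, edgeR called 4 lower, beside 1.18% of all genes tested, and none higher. Their median log2 fold change was -0.32. Irf7, a factor that amplifies type I interferon, had 7.10, 5.34 and 8.49 CPM in dKO replicates 1 to 3, against 10.7, 15.2 and 14.8 CPM in WT replicates 1 to 3 (-0.82 ± 0.18, SE; edgeR adjusted p = 0.0017). The groups did not overlap for Irf7. Stat2, which acts on the ISRE, had a log2 fold change of -0.84 ± 0.17, and Nlrc5, the transactivator of MHC class I genes, of -0.64 ± 0.15 (SE). The call of Nlrc5 was lost with DESeq2 (adjusted p = 0.101) and without WT replicate 2 (0.176, log2 fold change -0.48). Irf1, which drives Gbp genes, was not called (22.7 ± 1.37 CPM in dKO and 25.9 ± 2.38 CPM in WT, SD, n = 3 each; edgeR adjusted p = 0.469). The interferon signalling inhibitors had none of 8 called by edgeR, DESeq2 or limma-voom, 2 with an unadjusted p under 0.05 in edgeR, and a median of 0.09. Their smallest p belonged to Socs3, an inhibitor of JAK kinases (0.40 ± 0.15, SE), and Usp18, which blocks the type I receptor (-0.68 ± 0.29, SE).

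Of 26 tested antiviral effectors outside both GTPase families, edgeR called 13 lower, beside 1.18% of all genes tested, and none higher. Their median log2 fold change was -0.63. The 4 with the smallest p were Rnf213, a ubiquitin ligase (51.7 ± 0.886 CPM in dKO, 92.8 ± 3.21 CPM in WT), Trim30a (7.65 ± 1.31 and 18.1 ± 3.61 CPM), Ifit3 (11.9 ± 0.220 and 20.996 ± 1.34 CPM) and Parp14, a mono-ADP-ribosyltransferase (18.9 ± 1.26 and 29.1 ± 2.38 CPM; SD, n = 3 each). With DESeq2 7 of the list were called, and without single libraries 8 to 14, with 8 without WT replicate 1. Of the dynamin-like Mx and very large GTPases, none of 3 was called by edgeR, DESeq2 or limma-voom, 2 had an unadjusted p under 0.05 in edgeR, and the median was -0.87. Mx2 had a log2 fold change of -1.21 ± 0.40 and Mx1 of -0.87 ± 0.32 (SE).

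Genes that act with or beside the GTPases were not called by edgeR. In the MHC class I list none of 17 was called by edgeR or DESeq2 and 1 was lower with limma-voom; 4 had an unadjusted p under 0.05 in edgeR and the median was -0.14, with H2-T23 at -0.36 ± 0.13 and H2-Q6 at 0.39 ± 0.15 (SE). Of 16 ATG8-conjugation and ubiquitin genes that direct IRG and GBP proteins to vacuoles, none was called by the 3 tools, 2 had an unadjusted p under 0.05 in edgeR, and the median was -0.08. Trim21, a ubiquitin ligase, was at -0.65 ± 0.21 and Rbck1, of the linear ubiquitin complex, at 0.54 ± 0.21 (SE). The 6 tested inflammasome genes, which act downstream of GBPs, had none called by the 3 tools, 1 with an unadjusted p under 0.05 in edgeR and a median of 0.15, with Il1b at 0.79 ± 0.34 and Ninj1, which ruptures the dying cell's membrane, at 0.16 ± 0.23 (SE). The 5 tested genes of CaaX prenylation, the modification that anchors Gbp2 and Gbp5, had none called by the 3 tools, none with an unadjusted p under 0.05 in edgeR, and a median of -0.07, with Icmt at 0.13 ± 0.15 and Pggt1b at -0.17 ± 0.29 (SE). Differences between these lists were not tested, and a p above the threshold does not show equal levels.

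**Figure D5:**
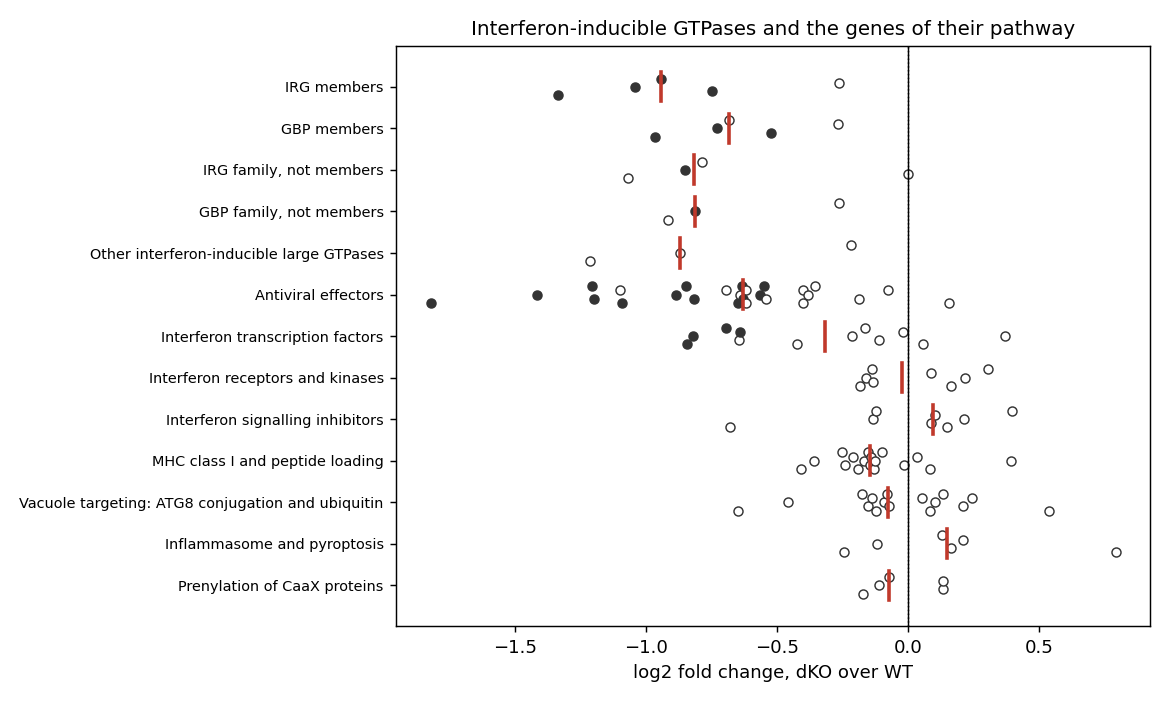
Log2 fold change, dKO over WT, of each tested gene (circles; filled, adjusted p under 0.05) in the IRG and GBP members and in 11 lists of related genes, with the list median as a red bar; the vertical position inside a row only spreads the points. The medians are -0.94 and -0.68 for the IRG and GBP members, -0.63 for antiviral effectors and between -0.32 and 0.15 for the lists below them.

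The mean profile of the 10 genes over the 6 libraries, as centred log2 CPM, was -0.48, -0.37 and -0.28 in dKO replicates 1 to 3 and 0.39, 0.29 and 0.45 in WT replicates 1 to 3. Among 4836 other genes with a symbol and 5 CPM or more on average, the nearest profiles by root mean square distance over the 6 libraries were Gbp4 (0.092), Ints8 (0.094), Nfat5 (0.094), Rnf213 (0.098) and Ifit3 (0.099). Within the family the distance ran from 0.070 for Gbp3 and 0.124 for Igtp to 0.296 for Tgtp2 and 0.313 for Gbp6. Nfat5, the osmotic stress transcription factor, was at 10.5 ± 0.725 CPM in dKO and 16.7 ± 0.528 CPM in WT, and Ints8, an Integrator subunit, at 5.003 ± 0.490 and 7.85 ± 0.993 CPM (SD, n = 3 each). Nfat5 passed the test with edgeR (adjusted p = 0.0042) but not with DESeq2 (0.0763), and Ints8 did not pass (edgeR adjusted p = 0.143).

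Markers of other cell types moved between the same groups. Beside the marker counts here and below, edgeR called 1.18% of all genes tested lower and 0.734% higher. Rod markers summed to 373 to 462 CPM in the libraries labelled dKO and 199 to 230 CPM in those labelled WT, with 8 of 13 tested called higher; Gnat1 was at 49.8 and 25.4 CPM. Bipolar markers summed to 150 to 154 CPM in dKO and 207 to 214 CPM in WT, with 4 of 10 lower; Trpm1 was at 39.1 and 58.1 CPM. B and plasma cell markers summed to 351 to 387 CPM in dKO and 427 to 596 CPM in WT, with 2 of 4 lower, Igkc at 195 and 282 CPM and Ighg2b at 75.2 and 139 CPM. Cone markers were at 22.9 to 30.9 CPM in dKO and 36.5 to 40.3 CPM in WT (1 of 3 lower with edgeR, none with DESeq2). RGC markers were at the sums given above (1 of 5 higher with edgeR). Amacrine and horizontal markers summed to 31.2 to 39.6 CPM in dKO and 26.5 to 30.7 CPM in WT, with Onecut1 at 0. With edgeR 1 of 2 was called higher, and with limma-voom none. The part of these shifts in the levels of the IRG and GBP genes was not tested.

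Other marker lists cover cell types known to make much of these GTPases in inflamed tissue. Microglia and macrophage markers summed to 875 to 921 CPM in the libraries labelled dKO and 804 to 896 CPM in those labelled WT, with 1 of 14 tested called, Lyz2, which was higher; Ctss was at 218 and 233 CPM. For 4 of these 14, Lyz2 among them, every dKO-labelled library was above every WT-labelled one, and for none were all below. In the Müller glia and astrocyte list 6 of 12 tested were all above and 1 was all below. Over all genes tested 8.31% were all below, and the share all above was not computed. Endothelial markers were at 256 to 269 CPM in dKO and 260 to 300 CPM in WT, with none of 4 called by edgeR, DESeq2 or limma-voom and none with an unadjusted p under 0.05 in edgeR. That sum is mostly Kdr, at 153 and 163 CPM, Flt1, at 68.7 and 73.9 CPM, and Slc2a1, at 32.6 and 32.8 CPM. The junction markers Cldn5 and Cdh5, named after their values were seen, were too sparse to test. In CPM both were lower in every dKO-labelled library than in any WT-labelled one. Cldn5 had 1, 2 and 16 counts in dKO replicates 1 to 3 and 12, 6 and 7 in WT replicates 1 to 3 (0.574 ± 0.433 and 2.10 ± 0.454 CPM; SD, n = 3 each). Cdh5 had 0, 2 and 3 counts in dKO replicates 1 to 3 and 6, 6 and 2 in WT replicates 1 to 3, which is at or near the limit of 3 counts. Its dKO replicate 2 and WT replicate 3 were nearly equal, at 0.485 and 0.510 CPM. Their direction is that of the GTPase genes, as is that of Tek and Vwf, whose groups overlapped. Pecam1 (3.46 and 3.05 CPM in dKO and WT), Emcn (0.822 and 0.336 CPM) and Tie1 (0.633 and 0.328 CPM) had the higher mean in dKO. Their groups overlapped too. The part of any endothelial marker in the result was not tested. Pericyte markers were at 150 to 161 CPM in dKO and 144 to 150 CPM in WT (none of 6 called by the 3 tools, 1 with an unadjusted p under 0.05 in edgeR), with Rgs5 at 95.1 and 89.8 CPM and Pdgfrb at 27.2 and 27.4 CPM. The T and NK cell markers Lck (9.37 and 6.92 CPM in dKO and WT) and Cd4 (7.54 and 6.32 CPM) were not called. The list was at 40.3 to 48.3 CPM in dKO and 40.6 to 50.1 CPM in WT. With edgeR 1 of 7 was called, Gzma, which was lower, and with DESeq2 none. Of these 7, 2 had a negative log2 fold change, Gzma and Gzmb. Lck was higher in every dKO-labelled library than in any WT-labelled one. Cd8a, too sparse to test, was lower in every one (1.60 ± 0.412 CPM in dKO and 2.71 ± 0.298 CPM in WT, SD, n = 3 each). Of the Müller glia and astrocyte list 1 of 12 was called with edgeR, Gfap, which was higher, and 3 were called higher with limma-voom. Glul was at 1159 and 1116 CPM and Clu at 729 and 641 CPM in dKO and WT. In which of these cells the GTPase transcripts were made was not tested.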

How the data were processed

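Per the labels' protocols, a strand-preserving total RNA kit was used on the sorted cells. The authors deposited unnormalized read counts for each Ensembl gene; STAR 2.7.0d, DESeq2 1.22.2 and GRCm38 were used, per the submitters' processing notes. How reads were assigned to genes, with which strand setting and which annotation, is not given in the sources used here. Reads of overlapping or antisense partners therefore cannot be separated.

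The 10 genes and all gene and marker lists were chosen with earlier results of these data known. Genes were filtered by edgeR's filterByExpr (minimum count 10, minimum total 15), scaled by TMM with the ribosomal RNA row kept, and compared by edgeR's two-sided quasi-likelihood F test (edgeR 4.0.16 under R 4.3.3) on all 8444 genes passing, with Benjamini-Hochberg adjustment over all of them. Genes past an adjusted p of 0.05 are called. edgeR's common biological coefficient of variation was 0.0820. The SE was computed as the log2 fold change over the root of F. Exon lengths, positions and shared 50-base stretches came from GENCODE M21 (55394 of 55573 IDs found). Figures were drawn with matplotlib 3.10.9.

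Named are the 10 genes, family genes with at least 10 counts, up to 4 called genes of each list by smallest p (else the 2 with the smallest p), the 2 most abundant of each marker list, Myh9, Myh10 and the 5 nearest profiles; a few genes that this rule names are left out of the text but stayed in every fit and count; list medians and markers named beyond this were chosen after their values were seen. Alternatives were RLE, upper-quartile and outside-rRNA scaling, no filter, DESeq2 1.42.0, limma-voom (limma 3.58.1), the replicate number as a block, and leaving out each library.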

Additional observations from a re-analysis of the deposited data

How the results depend on the processing

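Under 13 alternatives the 10 genes gave 130 log2 fold changes, all negative, of which 125 kept their side of the threshold and 5 (Irgm2 and Gbp2, given above) lost it. Between 5 and 7 of the 10 were called, 6 with DESeq2 and 5 without dKO replicate 3. Their median of -0.74 ranged from -0.87 (without dKO replicate 3) to -0.66 (without WT replicate 3). Irgm1, never called, ranged from -0.46 to -0.059. Over all genes, against 100 lower and 62 higher, DESeq2 called 43 lower and 32 higher, and leaving out single libraries gave 61 to 115 lower and 29 to 71 higher. Of antiviral effectors, 13 became 7 with DESeq2 and 8 to 14 without single libraries; why DESeq2 called fewer was not tested. Interferon transcription factors were 3 or 4 throughout. The median of all genes stayed within 0.054 of 0.

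Same-numbered libraries deviated together with weak correlations of 0.026, 0.013 and 0.029, yet each of the 6 libraries correlated best with its own number. These values do not settle whether the numbers pair samples. With the replicate number as a block, 7 of the 10 genes, 100 lower and 58 higher genes were called. With 9 to 312 counts a gene in a library, depth limits the scarce genes most, Gbp6 and Tgtp2 among them.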
